A study of Mus musculus with 20 samples.

Results

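Strong fetal-only primed elements are stretches of chromatin that carry a high-scoring H3K4me1 peak in fetal hematopoietic stem cells (HSCs) and no H3K4me1 peak in adult HSCs, and that lack H3K27ac and H3K4me3 peaks at both stages. There were 2978 of them among 76507 regions obtained by merging the H3K4me1 and H3K27ac peaks of both stages on chromosomes 1 to 19. They were chosen by measured values, namely the absence of overlap with H3K4me3, H3K27ac and adult H3K4me1 peaks and a highest fetal H3K4me1 peak score of at least 300. Their score, their lack of the excluded marks and their H3K4me1 width therefore describe the choice and are not findings. H3K27me3 took no part in it.

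The cells came from mice of strain B6129SF1. Fetal HSCs were taken from liver at embryonic day 14.5, and adult HSCs from bone marrow at 6 to 8 weeks. At both stages the sorting gate was Lin-Sca1+cKit+CD135-, and the labels name no further surface marker for either stage, so the sorted cells are HSCs as far as this gate defines them. Each chromatin immunoprecipitation used 50000 cells, with 2 replicates per mark and stage, and each mark and stage is represented by 1 combined peak list. No value below therefore carries a replicate error, no test between the stages was possible, and a difference between fetal and adult lists cannot be told apart from one in library depth or peak calling. The labels give no pooling of animals and no sex, and marker genes of the sorted cells could not be examined because gene positions of the files' build, mm9, were not used here.

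H3K4me1 is laid down by the MLL3 and MLL4 methyltransferase complexes at enhancers and around promoters. An enhancer with H3K4me1 but without H3K27ac is usually described as primed, and gain of H3K27ac, the product of the acetyltransferases p300 and CBP, marks it as active. H3K27me3 is written by Polycomb repressive complex 2, and enhancers that hold H3K4me1 together with H3K27me3 are often called poised. Acetylation and trimethylation of the same lysine 27 exclude each other on 1 histone tail. In blood development, H3K4me1 without acetylation is known from enhancers of genes used in other lineages or at other stages.

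The label was checked against the whole fetal H3K4me1 list, which held 92339 peaks on chromosomes 1 to 19. A score of 300 or more was reached by 16781 of them, or 18.2%, and the median score was 117. Scores are the authors' own, from their peak caller. Regions are called distal here if no H3K4me3 peak of either stage overlapped them, without regard to gene positions. Regions whose fetal H3K4me1 reached that score numbered 14070. Of these, 4844 (34.4%) also had H3K4me3, 2794 (19.9%) were distal and acetylated in the fetal list only, 2421 (17.2%) were distal and acetylated at both stages, 271 (1.93%) were distal and acetylated in the adult list only, and 762 (5.42%) were unacetylated with H3K4me1 at both stages. The 2978 elements described here made up the remaining 21.2%. Most strong fetal H3K4me1 regions were thus promoter-like or acetylated. The elements described here were second in size to those with H3K4me3 only because distal acetylated regions were split by stage. Without that split, distal acetylated regions outnumbered the elements described here.

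The fetal-only state has to be read beside the size of the adult list, which held 12502 H3K4me1 peaks with a highest score of 516, and 28 peaks at 300 or more. Among unacetylated distal elements with fetal H3K4me1 of 300 or more, 2978 of 3740 had no adult peak, or 79.6% (95% Clopper-Pearson interval 78.3 to 80.9). Below that score, 39846 of 41059 had none, or 97.05% (96.9 to 97.2). The share without an adult peak was 98.9% at scores from 50 to 75, 86.1% from 300 to 400, 73.3% from 500 to 1000 and 43.6% (35.9 to 51.6) from 1000 upward. The strongest fetal elements were therefore the ones that most often also had an adult peak, and elements without one were relatively fewer among them. This share comes from the rule applied to 2 separately called lists of unknown depth, so that an element without an adult peak is not shown to have lost H3K4me1. Width also rose with score, and wider regions meet more adult peaks by size. The part of width or depth in this share was not tested.

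In what follows the elements are compared with 39846 weaker fetal-only primed elements, which met the same rule with a score under 300, and with 1975 primed elements that had H3K4me1 at both stages. The latter were not limited by score. Of them 762 scored 300 or more and 1213 less, and their median score was 228.5 against 410.2 for the strong elements. Differences from them can therefore also go with score. For H3K27me3 the strong elements are also compared with 6790 distal elements acetylated in the fetal list only and 3351 acetylated at both stages. Intervals in parentheses are 95% intervals that cover counting error over regions only. Neighbouring regions are not independent. Differences between 2 shares are in percentage points with a Newcombe interval, and the intervals were not adjusted for the 80 differences computed.

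Peaks of 1 list do not overlap each other, so by the rule every one of the 2978 elements consisted of 1 fetal H3K4me1 peak. Their widths ran from 524 to 5686 bp with a median of 1136 bp, and the middle 50% lay between 955 and 1408 bp. The highest score was 2960, with a median of 410.2 and an upper quartile of 532.9. Weaker elements had a median width of 336 bp and primed elements with H3K4me1 at both stages one of 749 bp. Median width rose with score within the set, from 974 bp at scores of 300 to 400 to 1536 bp at 500 to 1000 and 2537 bp in the 72 elements at 1000 or more. A peak of about 1 kb spans several nucleosomes, whereas the weaker elements are closer to the length of a single nucleosome or a pair.

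**Figure D1:**
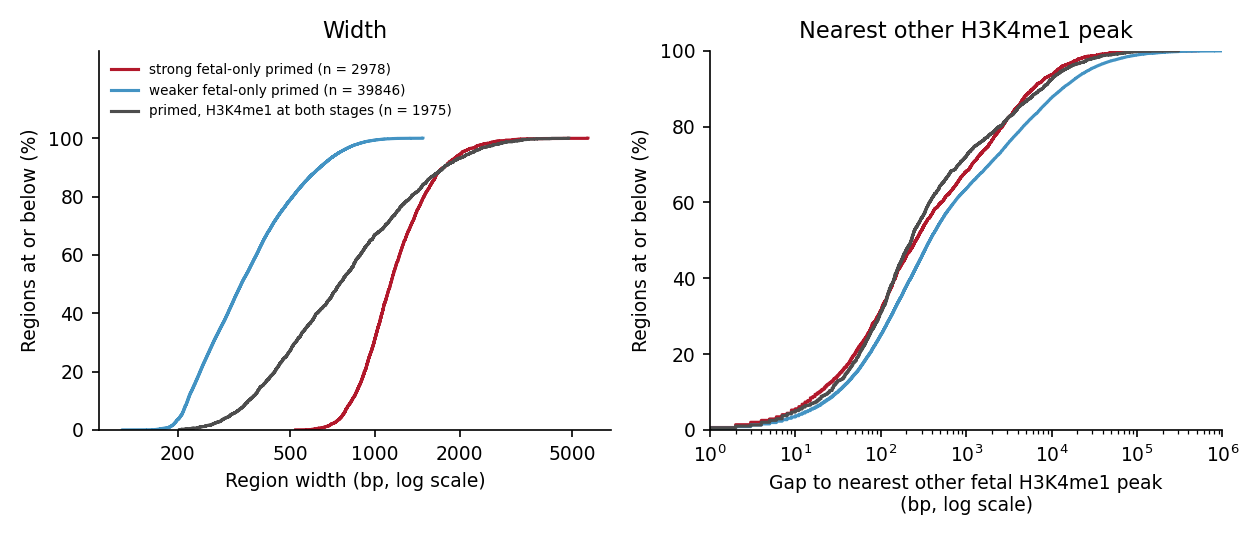
Cumulative share of regions (y axis, %) by region width in bp (left, log x axis) and by the gap in bp to the nearest other fetal H3K4me1 peak (right, log x axis), for 2978 strong fetal-only primed elements, 39846 weaker ones and 1975 primed elements with H3K4me1 at both stages. Strong elements are the widest by median, at 1136 bp, and their median gap of 258.5 bp lies between those of the other groups.

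The element with the highest score was also the widest. It lies on chromosome 2 from 26341461 to 26347146 (mm9, 1-based, as are all positions here), spans 5686 bp and scored 2959.75. A fetal H3K27ac peak lay 573 bp away, an adult H3K27ac peak 1093 bp and an adult H3K4me1 peak 1436 bp away, and no H3K27me3 peak of either stage overlapped it. The second by score, on chromosome 13 from 51860792 to 51864721 (3930 bp, score 2238.38), sat 92 bp from another strong fetal-only element and 7663 bp from fetal H3K27ac. Its nearest adult H3K27ac peak was 22586 bp away. The third, on chromosome 14 from 26433098 to 26436388 (3291 bp, score 1968.71), lay 3314 bp from fetal and 4547 bp from adult H3K27ac and belongs to a cluster described below.

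On the same chromosome the fourth by score, from 69893264 to 69897914, was the second-widest at 4651 bp, with a score of 1906.39. It had an adult H3K4me1 peak 678 bp away, fetal H3K27ac at 3291 bp and adult H3K27ac at 3223 bp. The fifth, on chromosome 5 from 119038551 to 119042717 (4167 bp, score 1791.83), was farther from acetylation, at 26438 bp in the fetal and 20067 bp in the adult list. The fifth-widest element, on chromosome 2 from 152750781 to 152754466 (3686 bp), scored 976.94 and lay 73530 bp from fetal but 20052 bp from adult H3K27ac. None of these 6 elements overlapped H3K27me3 at either stage. Their gaps to acetylation spanned 573 to 73530 bp in the fetal list. Over all strong elements the median gap to fetal H3K27ac was 7687 bp at scores of 300 to 400. It was 6800 bp at 400 to 500, 6011 bp at 500 to 1000 and 7775 bp at 1000 or more.

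At the threshold, the members just inside scored exactly 300 in the first case and 300.23 in the other two. They lie on chromosome 5 from 36877166 to 36877928, on chromosome 1 from 52070876 to 52071703 and on chromosome 15 from 80374397 to 80375115, with widths of 763, 828 and 719 bp. The regions just outside scored 299.94, 299.91 and 299.86. They lie on chromosome 5 from 136380973 to 136381938, on chromosome 4 from 118853595 to 118854458 and on chromosome 3 from 9002376 to 9003109, with widths of 966, 864 and 734 bp. Widths on both sides of the threshold overlapped, and none of the 6 regions had H3K27me3.

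Trimethylation of lysine 27 was found at a small share of the strong elements, and mostly at both stages. A fetal H3K27me3 peak overlapped 217 of 2978, or 7.29% (6.38 to 8.28), and an adult peak 163, or 5.47% (4.68 to 6.35). Over all 56996 distal elements the shares were 5.68% in the fetal and 3.73% in the adult list. Over the 45928 distal elements that lacked acetylation at both stages they were 6.84% and 4.56%, so the fetal share of the strong elements is close to that background. Of the 217 elements with fetal H3K27me3, 161 also had the adult mark, and only 2 of the 163 with adult H3K27me3 lacked the fetal one.

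Compared with the weaker elements, the unweighted share with H3K27me3 did not differ beyond counting error in the fetal list. In the adult list it was slightly higher. The fetal share of the weaker elements was 6.81%, a difference of 0.476 points (-0.439 to 1.49). The adult share was 4.535%, a difference of 0.939 points (0.149 to 1.84). Because wider regions meet more peaks by size alone, the midpoint of each region was examined as well. A fetal H3K27me3 peak covered the midpoint of 6.48% of strong and 6.55% of weaker elements, a difference of -0.0643 points (-0.930 to 0.907), and an adult peak covered 4.53% and 3.80%, a difference of 0.734 points (0.0170 to 1.56). Weighting the weaker elements to the widths of the strong ones, over 2388 strong elements of 600 to 1500 bp, gave differences of 2.20 points in the fetal and 1.65 in the adult list. The widest class there, 1200 to 1500 bp, set 681 strong elements against 28 weaker ones, of which 1 had fetal H3K27me3. Without that class, as an alternative added after seeing the data, the differences were 1.46 and 1.57 points over 1707 strong elements. The width-weighted values carry no interval.

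The share of fetal H3K27me3 moved little along the score, from 6.52% (6.15 to 6.90) at 50 to 75 over 7.44% (6.58 to 8.36) at 200 to 300 to 7.54% (6.21 to 9.05) at 300 to 400 and 7.34% (5.63 to 9.36) at 500 to 1000. Among the 72 elements that scored 1000 or more, 2 had fetal H3K27me3, or 2.78% (0.338 to 9.68), and none had the adult mark, with an upper bound of 4.99%. The interval of this last bin overlapped those of the other bins. The adult share was 4.15% (3.85 to 4.46) at 50 to 75, 5.33% (4.61 to 6.13) at 200 to 300 and 5.60% (4.45 to 6.94) at 300 to 400. On either side of the threshold of 300 the shares lay within each other's intervals in both lists.

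**Figure D2:**
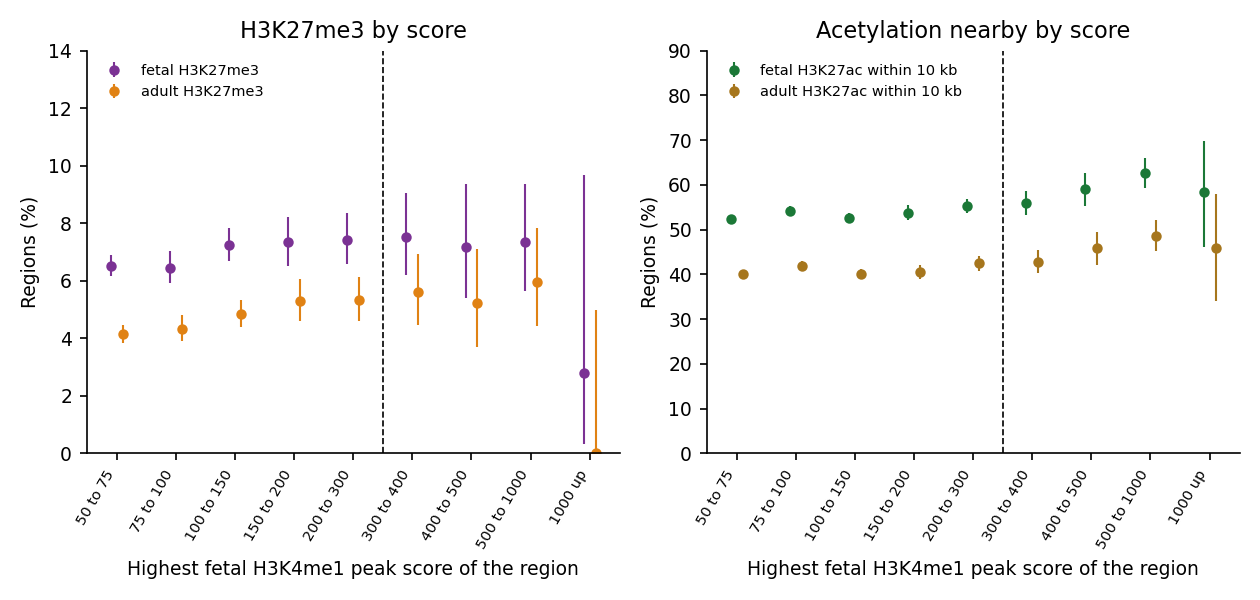
Share of fetal-only primed elements (y axis, %) with an H3K27me3 peak (left) or with an H3K27ac peak within 10 kb (right), in bins of the highest fetal H3K4me1 score (x axis). Points are shares, bars 95% Clopper-Pearson intervals, and the dashed line is the threshold of 300. The fetal H3K27me3 share stays between 6.46% and 7.54% up to a score of 1000, and the share near fetal acetylation reaches 62.7% at 500 to 1000. In the 72 elements at 1000 or more, the share near fetal acetylation is 58.3% (46.1 to 69.85).

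Where fetal H3K27me3 overlapped a strong element it usually covered the element completely. Of the 217, 165 lay wholly inside H3K27me3 and 193 were covered over at least 50%. The 202 fetal H3K27me3 peaks involved had a median width of 6136 bp, against 1408 bp over all fetal H3K27me3 peaks. Wide peaks meet more regions by their size, so that this comparison is a description. In the adult list 32 of 163 elements were covered over their whole length and 136 over at least 50%, by 285 peaks with a median width of 675 bp, against 280 bp over the list. In all, 225169 of the 3680176 bases in the strong elements lay under fetal and 150559 under adult H3K27me3.

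Elements with fetal H3K27me3 had the adult mark more often when strong than when weaker, at 74.2% (67.8 to 79.9) against 65.1% (63.3 to 66.9), a difference of 9.05 points (2.595 to 14.7). For primed elements with H3K4me1 at both stages the share was 64.0%, and the difference from the strong elements was 10.2 points (0.654 to 19.8). Wider regions also meet more of the narrow adult peaks, and the part of width or score in these differences was not tested.

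Distal elements with H3K27ac had far less H3K27me3. It was found in the fetal list at 63 of 6790 elements acetylated in the fetal list only, or 0.928% (0.714 to 1.19), and at 17 of 3351 acetylated at both stages, or 0.507% (0.296 to 0.811). The strong primed elements exceeded these shares by 6.36 points (5.44 to 7.37) and 6.78 points (5.85 to 7.79), although the acetylated elements were wider, with medians of 1614 and 2665 bp. In the adult list the same comparison gave 0.309% and 0.0895%, which were 5.16 points (4.39 to 6.05) and 5.38 points (4.60 to 6.26) lower. H3K27me3 was thus more frequent at strong primed elements than at acetylated ones. In the fetal list its unweighted and midpoint shares did not differ beyond counting error from other elements with fetal H3K4me1 and no acetylation. The width-weighted difference from weaker elements was 2.20 points, without an interval. At like distance to fetal H3K27ac, given below, the strong share was higher than that of weaker elements in each class, with overlapping intervals.

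The most extensive overlap with fetal H3K27me3 was at an element of 2116 bp on chromosome 9, from 58043857 to 58045972. It was covered completely in the fetal list and over 1969 bp in the adult list, another strong element lay 13 bp away, and acetylation was 32622 bp away in the fetal list. On chromosome 15 from 98926956 to 98929019, all 2064 bp were covered in the fetal and 1982 bp in the adult list, 2196 bp from an H3K4me3 peak. On chromosome 5 from 33775781 to 33777810, the 2030 bp were covered fully in the fetal list and over 1882 bp in the adult list. The fourth, on chromosome 4 from 41444694 to 41446639, had 1946 bp under fetal and 1564 bp under adult H3K27me3, with fetal H3K27ac 31698 bp and adult H3K27ac 6999 bp away. The fifth, on chromosome 1 from 157583517 to 157585443, had 1927 and 1528 bp, and its nearest strong element was 1308277 bp away. All 5 were wholly covered in the fetal list and mostly covered in the adult list.

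The 2 elements with H3K27me3 in the adult list alone were covered over short stretches. On chromosome 11 from 53300268 to 53301927, adult H3K27me3 covered 349 of 1660 bp. Fetal H3K27ac lay 2784 bp from this element and adult H3K27ac 30854 bp. On chromosome 4 from 154681464 to 154682371 the mark covered 240 of 908 bp, and H3K27ac was more than 56 kb away at both stages, at 56374 bp in the fetal and 56155 bp in the adult list.

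Strong elements with fetal H3K27me3 lay farther from acetylation and nearer to H3K4me3 than those without it. Their median gap to the nearest fetal H3K27ac peak was 22265 bp, against 6446 bp for elements without fetal H3K27me3, and a fetal H3K27ac peak lay within 10 kb of 70 of 217, or 32.3% (26.1 to 38.9), against 1675 or 60.7% (58.8 to 62.5). The median gap to H3K4me3 of either stage was 7510 against 15265 bp, and 57.1% (50.3 to 63.8) against 39.2% (37.4 to 41.04) had H3K4me3 within 10 kb. For 80 of the 217 the fetal H3K27me3 peak itself also overlapped a fetal H3K4me3 peak, a combination called bivalent at promoters. The H3K4me3 may lie anywhere along these wide H3K27me3 peaks, and wide peaks meet more regions by size. The same share for weaker elements or over all fetal H3K27me3 peaks is not given here, so the count is a description. Widths and scores hardly differed, with medians of 1106 and 1139 bp and of 405.6 and 410.4.

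The share with fetal H3K27me3 rose with the distance to acetylation. It was 11 of 419 elements, or 2.63% (1.32 to 4.65), where fetal H3K27ac lay within 1 kb, 3.44% (2.32 to 4.91) from 1 to 5 kb and 6.46% (5.001 to 8.19) from 5 to 20 kb. From 20 to 100 kb it was 14.1% (11.5 to 17.0), and beyond 100 kb 25 of 110 elements, or 22.7% (15.3 to 31.7), had the mark. Weaker elements rose in the same way, from 1.90% (1.58 to 2.26) within 1 kb to 20.8% (19.4 to 22.3) beyond 100 kb, and the strong share was the higher one in each of the 5 distance classes, with overlapping intervals.

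**Figure D3:**
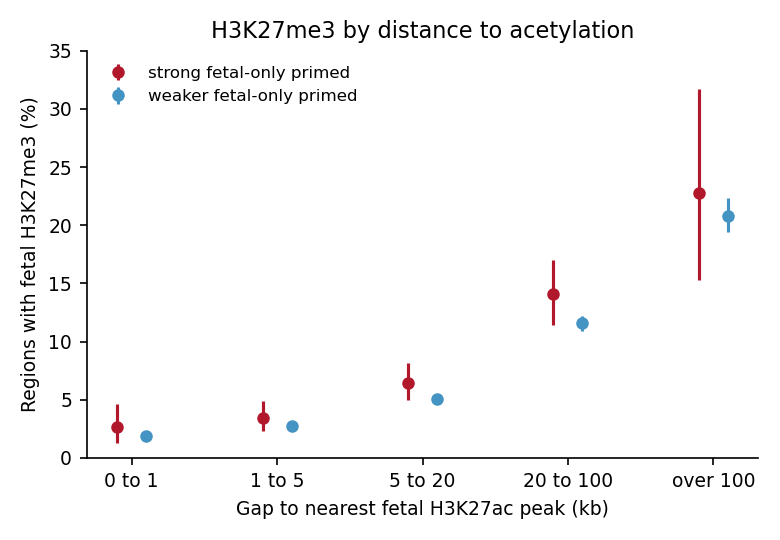
Share of elements with a fetal H3K27me3 peak (y axis, %) by the gap to the nearest fetal H3K27ac peak in kb (x axis), for strong (red) and weaker (blue) fetal-only primed elements, with 95% Clopper-Pearson intervals. In both groups the share is lowest within 1 kb of acetylation, at 2.63% and 1.90%, and highest beyond 100 kb, at 22.7% and 20.8%.

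Although unacetylated, many strong elements lay near acetylated chromatin. The nearest fetal H3K27ac peak was a median of 7062 bp away (quartiles 2166 and 19965 bp), and the nearest adult H3K27ac peak 12164 bp (quartiles 3927 and 33343 bp). A fetal peak lay within 10 kb of 1745 elements, or 58.6% (56.8 to 60.4), and an adult peak within 10 kb of 1346, or 45.2% (43.4 to 47.01). Over all unacetylated distal elements these shares were 53.5% and 41.3%. The fetal share depended on what was counted, and was 46.9% with H3K4me1 and H3K27ac peaks merged within 1 kb, 37.5% for fetal H3K27ac without H3K4me3 and 34.6% for the better-scoring fetal H3K27ac peaks. For 467 elements, or 15.7%, fetal H3K27ac lay within 10 kb on both sides. This was close to the 13.7% of weaker elements and the 14.9% of primed elements with H3K4me1 at both stages. No H3K27ac of either stage lay within 100 kb of 97 elements, or 3.26% (2.65 to 3.96). That share was 7.08% for weaker elements and 4.35% for primed elements with H3K4me1 at both stages.

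The distance pattern differed from that of the weaker elements in opposite ways near and far. Within 1 kb of fetal H3K27ac there were fewer strong than weaker elements, at 14.1% against 16.2%, a difference of -2.08 points (-3.34 to -0.739). Within 10 kb there were more, at 58.6% against 53.2%, a difference of 5.43 points (3.59 to 7.26), and within 50 kb 90.5% against 84.0%, a difference of 6.49 points (5.33 to 7.56). Adult H3K27ac gave the same crossing, with differences of -2.02 points (-2.91 to -1.03) within 1 kb and 4.499 points (2.65 to 6.355) within 10 kb. The rule removes every region that touches acetylation, and wider regions are removed more easily. What part this has in the shortage within 1 kb was not tested. Within 10 kb the difference was 4.38 points with gaps measured from the midpoint and 4.43 points with weaker elements weighted by width, but 1.40 points (-0.351 to 3.19) when only the better-scoring fetal H3K27ac peaks, down to the list's median score, were counted.

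Against primed elements with H3K4me1 at both stages, the strong elements more often had fetal acetylation within 10 kb, and acetylation of either stage within 50 kb. A fetal H3K27ac peak lay within 10 kb of 55.04% of the former, 3.56 points (0.743 to 6.375) less than for the strong elements. For adult H3K27ac within 10 kb the share was 44.7%, and the difference 0.489 points (-2.34 to 3.31). Within 50 kb the differences were 3.36 points (1.57 to 5.202) for fetal and 3.26 points (1.06 to 5.50) for adult H3K27ac. Within 1 kb of adult H3K27ac the strong elements were fewer, at 6.68% against 9.62%, a difference of -2.94 points (-4.56 to -1.39). With 1 combined list per stage, whether the fetal and adult differences differ from each other was not tested. The strong elements also had the higher scores, and the part of score in these differences was not tested.

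**Figure D4:**
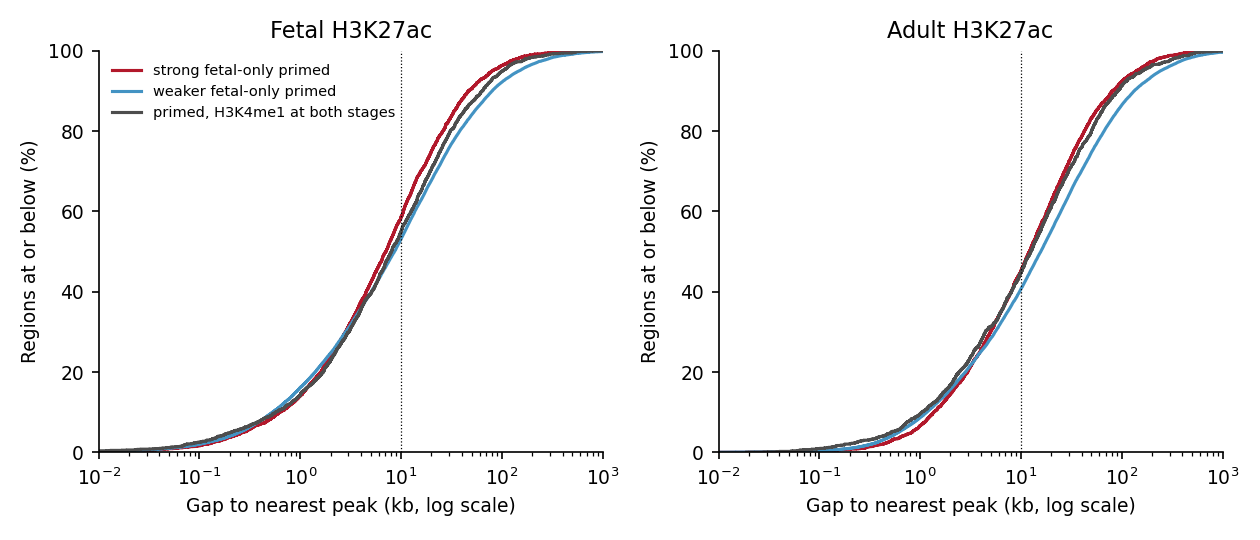
Cumulative share of regions (y axis, %) by the gap to the nearest H3K27ac peak in kb (log x axis) in the fetal (left) and adult list (right). Gaps under 10 bp are drawn at 10 bp and the dotted line marks 10 kb. Strong fetal-only elements (red) start at or below weaker ones (blue) at short gaps and lie above them from 10 kb, where they reach 58.6% against 53.2% for fetal H3K27ac.

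The acetylated neighbours were of both kinds, promoter-like and distal. The nearest fetal H3K27ac peak lacked H3K4me3 of either stage for 1504 elements, or 50.5% (48.7 to 52.3), against 48.1% of weaker elements, while 45.65% of all fetal H3K27ac peaks lacked it. It overlapped an adult H3K27ac peak for 1870 elements, or 62.8% (61.03 to 64.5), against 62.6% of weaker elements and 65.1% of all fetal H3K27ac peaks. These shares take the nearest peak at any distance. For the 1745 elements with that peak within 10 kb, 60.9% (58.6 to 63.2) of the peaks overlapped adult H3K27ac, against 62.8% for weaker elements. The nearest fetal H3K27ac peak was thus mostly one shared by both stages, at a share slightly lower than over the whole fetal H3K27ac list.

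Some elements were far from any acetylation. The farthest, on chromosome 12 from 96929867 to 96931512, lay 2521461 bp from fetal and 2565019 bp from adult H3K27ac. All 1646 bp of it were under fetal and 673 bp under adult H3K27me3, and H3K4me3 was 1427 bp away. The next, on chromosome 6 from 45220445 to 45221454, lay 1603357 bp from fetal H3K27ac, without H3K27me3, and 1603505 bp from H3K4me3. The third, on chromosome 12 from 42978170 to 42979263, was 684742 bp away and also had no H3K27me3. All 3 nevertheless had another fetal H3K4me1 peak within 312 bp, at 190, 312 and 136 bp.

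Most strong elements had another fetal H3K4me1 peak close by. The nearest other fetal H3K4me1 peak was a median of 258.5 bp away, and 2029 elements, or 68.1% (66.4 to 69.8), had one within 1 kb. Weaker elements had one within 1 kb in 63.6%, which is 4.51 points (2.75 to 6.23) less, and primed elements with H3K4me1 at both stages in 72.2%, where the strong elements differed by -4.07 points (-6.64 to -1.46). For 1406 of the 2029 the nearest such peak was a weaker fetal-only element, for 155 another strong one, for 80 a peak that overlapped adult H3K4me1, for 231 a peak with H3K27ac and for 157 a peak with H3K4me3. On both sides within 1 kb there were other peaks for 679 elements, or 22.8%. Many listed elements therefore lie in runs of closely spaced H3K4me1 peaks. Merging H3K4me1 and H3K27ac peaks of both stages within 1 kb before the rule was applied left 1903 elements. Such merging also joins elements to peaks of the excluded marks, and the rule then drops the joined region. The fall in number is thus not a count of pieces of the same run.

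Adult H3K4me1 was often in the vicinity even though none overlapped. An adult peak lay within 1 kb of 216 elements, or 7.25% (6.35 to 8.24), and within 10 kb of 1165, or 39.1% (37.4 to 40.9). Weaker elements had one within 10 kb in 30.3%, a difference of 8.85 points (7.06 to 10.7), while within 1 kb the difference was 0.635 points (-0.277 to 1.65). The median gap was 17308 bp for strong and 30330 bp for weaker elements. H3K4me3 of either stage lay within 10 kb of 1206 elements, or 40.5% (38.7 to 42.3), 2.79 points (0.973 to 4.62) more than for weaker elements. Dropping all elements with a peak of any excluding list within 1 kb left 2331.

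From one strong element to the next the median gap was 51126 bp, with quartiles of 9710 and 204539 bp. Joined within 10 kb, 759 elements, or 25.5% (23.9 to 27.1), formed 331 clusters, of which 259 held 2 elements and the largest 8, while 2219 stood alone. Joined within 50 kb, 1485 elements, or 49.9%, fell into 564 clusters. Fetal H3K27me3 was found at 59 of the 759 clustered elements (7.77%) and at 158 of the 2219 single ones (7.12%). Of the 331 clusters, 301 had it at no element, 19 at every element and 11 at some. With most clusters being pairs and the mark rare, the 301 largely restate its low share.

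The longest of the 3 clusters with the most elements is on chromosome 14 from 26394995 to 26436388. Its 8 elements span 41394 bp, are 822 to 3291 bp wide and score 316 to 1969. In order along the chromosome, their gaps to fetal H3K27ac were 14912, 16189, 15235, 10618, 4806, 3890, 298 and 3314 bp. The seventh and eighth flank the only acetylated site within the cluster, at which 2 fetal peaks and 1 adult H3K27ac peak lie together with H3K4me3 of both stages. Fetal H3K4me1 covered 22664 bp of the cluster with 19 peaks, against 559 bp with 2 adult peaks. No H3K27me3 peak of either stage lay in it.

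**Figure D5:**
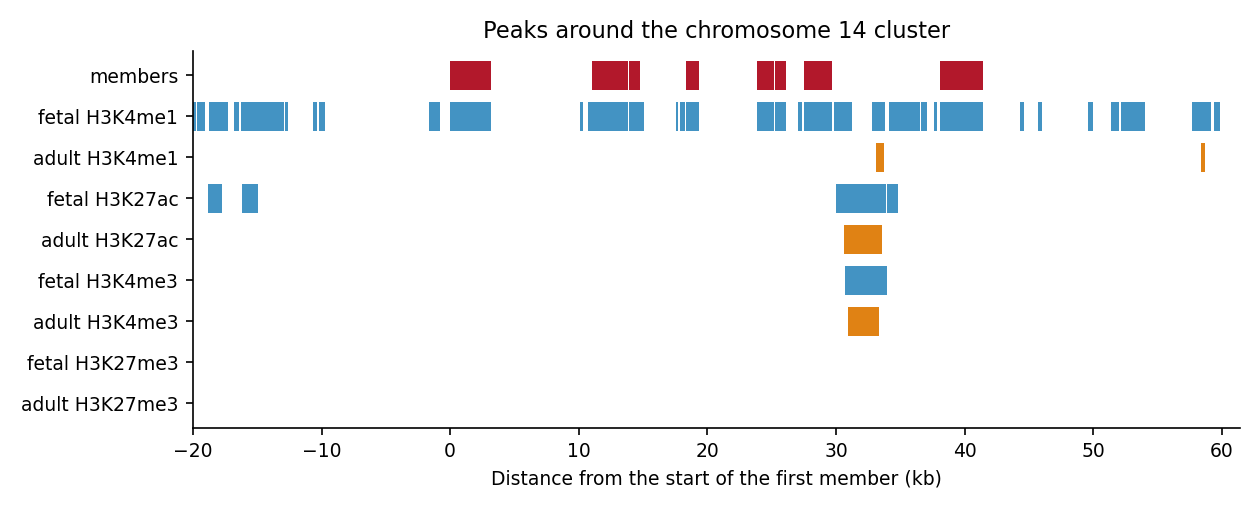
Peaks of the 4 marks in the fetal (blue) and adult lists (orange) around the cluster of 8 strong fetal-only primed elements (red) on chromosome 14, by distance in kb from the start of the first element (x axis). Bars are to scale. Fetal H3K4me1 extends over 22664 bp of the cluster and adult H3K4me1 over 559 bp, and the H3K27me3 tracks hold no peak within it.

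The second cluster, on chromosome 4 from 140842644 to 140882592, also holds 8 elements, over 39949 bp, and was mixed for H3K27me3. The first 3 elements overlapped fetal H3K27me3, which covered 1177 of 1177 bp, 844 of 844 bp and 472 of 939 bp, and the other 5 had none. In the adult list the second alone had the mark, over 760 bp. The 3 elements with H3K27me3 lay 7019 to 13003 bp from fetal acetylation and the 5 without it 910 to 22652 bp, so the ranges overlapped. Fetal H3K27me3 covered 12649 bp of the cluster with 7 peaks and adult H3K27me3 4064 bp, also with 7 peaks.

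The third cluster, on chromosome 2 from 166476698 to 166513282, holds 6 elements over 36585 bp. It had no H3K4me3 and no H3K27me3 peak at either stage. There were 3 fetal H3K27ac peaks in it, which covered 3877 bp, and 2 adult ones, which covered 1702 bp. Its elements lay 1423 to 14085 bp from fetal and 1493 to 14155 bp from adult acetylation. H3K4me1 covered 18248 bp in the fetal and 748 bp in the adult list. All 3 clusters thus held H3K27ac peaks of both stages between or beside their elements.

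Strong elements were found on every one of the 19 chromosomes, from 65 on chromosome 18 to 320 on chromosome 2. They made up 8.72% (7.82 to 9.68) of the fetal-only primed elements on chromosome 2, the highest share, and 5.19% (4.24 to 6.28) on chromosome 13, the lowest, against 6.95% (6.715 to 7.20) over all 19. Fetal H3K27me3 was found at 34 of 320 strong elements on chromosome 2, or 10.6% (7.47 to 14.5), and at 11 of 94 on chromosome 19, or 11.7% (5.99 to 19.97), but at 1 of 65 on chromosome 18. The interval for chromosome 18 was 0.0389% to 8.28%, and differences between chromosomes were not tested.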

How the data were processed

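Histone marks were profiled by ChIP-seq with single-end libraries, per the labels' protocols, in 20 samples (10 groups of 2, including inputs). The files are 8 deposited peak lists, titled as combined and so taken as called by the authors on pooled replicates. The score of each peak is the authors' own, deposited without a unit, and the lowest is 50. The deposited peak names begin with MACS, a peak caller. Bowtie2 2.2.2 and build mm9 are named in the submitters' processing notes. Settings of the caller, the control and the read depth are not given in the sources used here. Inputs and single replicates were not analysed here.

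Peaks on chromosomes 1 to 19 were merged on 1 bp of overlap. Gaps run from edge to edge, 0 where peaks touch. Shares have exact Clopper-Pearson intervals and differences Newcombe intervals from Wilson limits. Lists were pooled, so no p-value is given. Regions to be named were the 5 highest-scoring and 5 widest, the 5 and 3 with the most fetal or adult-only H3K27me3 (2 existed), the 3 farthest from H3K27ac, the 3 largest clusters, and 3 on each side of the threshold. The members and lists were chosen with earlier results of these data known. Alternatives changed the score threshold, merging, overlap, peak strength and distance. Overlap and interval code was tested on simulated data. Gene names and sequences need a genome of build mm9 and are not reported here. Software was scipy 1.17.1, pandas 2.3.3, matplotlib 3.10.9 and numpy 2.4.6 under Python 3.11.15.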

Additional observations from a re-analysis of the deposited data

How the results depend on the processing

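Shares outside the 95% interval of the reported value, and counts more than 1.5 times away, are given here. No paired analysis was possible because the lists combine both replicates of a group. Leaving out a replicate was not possible either. Of 70 alternatives 38 did not move the value. The causes of the other changes were not tested, apart from those that follow from a different threshold or distance. Read depth is unknown, so a missing adult peak cannot be told apart from too little adult signal.

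The number of elements was 6448 at a score threshold of 200, 1585 at 400, 876 at 500 and 1903 with peaks merged within 1 kb. Adult H3K27me3 was at 4.57% when 50% of the region had to be covered. Weighting by width moved the fetal H3K27me3 difference from weaker elements to 2.20 points, or to 1.46 points without the widest class, which held 28 weaker elements.

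The share near fetal H3K27ac was 42.3% within 5 kb and 90.5% within 50 kb. Within 10 kb it was 34.6% with the better-scoring H3K27ac peaks, 37.5% with distal peaks, 60.9% and 62.3% at thresholds of 400 and 500, 51.1% with other marks dropped within 1 kb and 46.9% with merged peaks. The difference from weaker elements, for which all alternatives were chosen after seeing the data, was 2.53 points within 5 kb, 1.40 with the better-scoring peaks, 7.62 and 8.97 at 400 and 500, 8.00 with other marks dropped and 8.85 with merged peaks. It kept its sign under the 12 alternatives run, although the interval with the better-scoring peaks reached from -0.351 to 3.19. Dropping other marks or merging peaks within 1 kb takes out elements close to H3K27ac. Within 1 kb the difference had the opposite sign, at -2.08 points (-3.34 to -0.739), so those settings could not check the sign. None of the 12 alternatives used a distance of 1 kb.

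Clusters held 17.9% of elements joined within 5 kb and 49.9% within 50 kb, and 38.4%, 18.8% and 15.1% at thresholds of 200, 400 and 500. The alternatives that follow were also chosen after seeing the data. Another H3K4me1 peak was present for 58.5% when acetylated and H3K4me3 neighbours were left out, 46.1% within 200 bp and 88.2% within 5 kb. The fetal-only share was 85.4%, 74.7% and 69.4% at 200, 400 and 500, and 88.7% when only better-scoring adult H3K4me1 peaks counted.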

Other observations

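On chromosome X, which lies outside the rule, 1 of 257 fetal-only primed elements reached a score of 300, or 0.389% (0.00985 to 2.15). On chromosomes 1 to 19 the share was 6.95% (6.715 to 7.20), and the lowest of the single chromosomes was 5.19%. The labels give no sex, and the read depth on X was not analysed here. The cause of the low share on X was not tested.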
